A study of Homo sapiens with 8 samples.

Results

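The nuclear genes of the respiratory chain and the ATP synthase were compared between cells that overexpressed the RNA-binding proteins HuR, TIA1 or TIAR and cells that expressed GFP alone. The group held every gene whose name on the array begins with NDUFA, NDUFB, NDUFC, NDUFS, NDUFV, COX4 to COX8, UQCR or ATP5, and SDHA to SDHD, CYC1 and CYCS. These were 94 of the 36337 gene names and 125 of the 50599 probes on the array, and the measured values played no part in the choice. By role, they were 7 core and 30 accessory subunits of complex I, 4 complex I assembly factors (NDUFAF1 to NDUFAF4), 4 subunits of complex II, 9 of complex III, 19 of complex IV, cytochrome c (CYCS), 16 genes named as ATP synthase, and 4 further names that the spelling also catches. Those 4 were COX4NB, ATP5S, ATP5SL and the pseudogene UQCRBP1.

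Oxidative phosphorylation takes place in the inner membrane of mitochondria. Complex I takes electrons from NADH and complex II takes them from succinate, both pass them to coenzyme Q, complex III hands them on to cytochrome c, and complex IV gives them to oxygen. Complexes I, III and IV pump protons as they do so, and the ATP synthase makes ATP as the protons flow back. Most subunits are encoded in the nucleus and imported, while the hydrophobic cores of complexes I, III and IV and parts of the ATP synthase are encoded by the mitochondrial genome, so that both genomes supply each of these complexes. Several complex IV subunits have paralogs that replace one another in muscle, testis or lung.

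FT293 is a line derived from HEK293, a human embryonic kidney line, in which a transgene inserted by Flp recombinase is switched on by tetracycline. All 4 lines carried such a transgene and were treated with tetracycline, and RNA was taken on day 3 from cells expressing GFP alone, GFP-tagged HuR, GFP-tagged TIA1 or GFP-tagged TIAR. Each line was hybridized to 2 one-colour arrays, which the submitters describe as independent biological replicates, and all 8 arrays lay on 1 slide. Each protein was represented by 1 line, so that an effect of the protein and a property of its line cannot be told apart.

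Signals are given as log2 values relative to the 75th percentile of the array, so that 0 is the 75th percentile and a difference of 1 is a 2-fold difference. Values of different probes are not compared with one another, except where probes are ranked by brightness. Each comparison used limma on the 4 arrays of the lines compared, over all probes detected, that is, flagged by the array software as well above background, in both replicates of 1 or more of these lines. A gene counts as called when the difference reached 2-fold and the p, adjusted after Benjamini and Hochberg, was under 0.05, and genes past the adjusted p alone are counted beside these. All adjusted p-values below are from limma over all probes tested. The precision is limited by having 2 arrays for each line. In RNA of whole cultures, fewer cells expressing a gene and less RNA per cell cannot be told apart.

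The brighter probe of TIAL1, which encodes TIAR, read 4.89 and 5.01 in TIAR-expressing cells and at most 2.53 on the other arrays. The other TIAL1 probe was not higher in its own line, at -4.10 and -3.83 against -3.44 and -3.68 in GFP-expressing cells. The probes of ELAVL1, which encodes HuR, and of TIA1 were not higher in their own lines (0.35 and 0.43 for ELAVL1 in HuR-expressing against 1.09 and 0.94 in GFP-expressing cells), and where they lie relative to the expressed coding sequences was not examined, so that these, unlike the brighter TIAL1 probe, check no label. All 9 HEK293 marker genes were detected. The array GFP 1 stood apart: 86.0% of its probes were well above background against 53.2% to 58.5% on the other 7 arrays, its local background was 79.3 against 27.8 to 33.8 intensity units, and 15.7% of probes differed by at least 2-fold between GFP 1 and GFP 2 against 0.455% to 1.46% between the arrays of the other lines. Comparisons with GFP are therefore also given with each GFP array left out.

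Signals of the respiratory chain genes were high in every line. Of the 94 genes, 91 had a probe that was detected in both replicates of a line, and on each array their median lay between the 96.0 and 96.8 percentile of all such probes, and 92.3% to 94.5% of them ranked among the 20% brightest. Each gene was read by its brightest detected probe and ranked among all detected probes, which favours a high rank. The genes not detected were COX4I2, COX7A1 and COX7B2, the paralogs known from lung, muscle and testis, whose probes were well above background on 1, 1 and 2 arrays. The median of the detected genes was 4.21 and 4.93 in GFP-, 5.01 and 4.84 in HuR-, 4.87 and 4.83 in TIA1- and 4.74 and 4.89 in TIAR-expressing cells. GFP 1 was the lowest of the 8, and over the detected genes the median difference between GFP 1 and GFP 2 was -0.40.

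**Figure D1:**
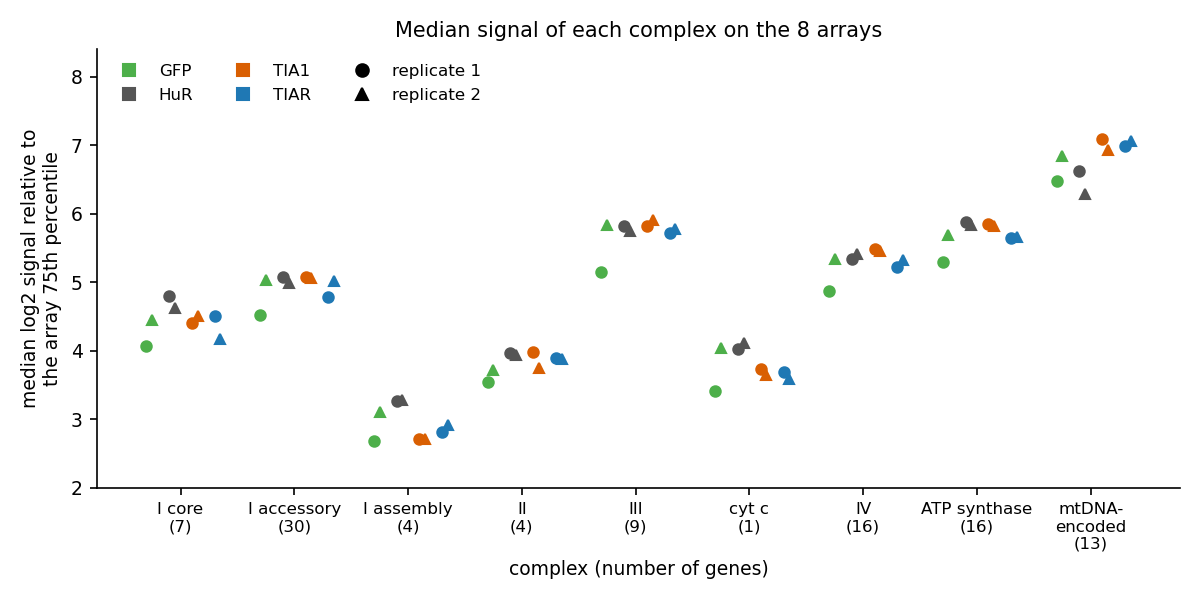
Median log2 signal, relative to the array's 75th percentile, of the detected genes of each complex and of the 13 genes of the mitochondrial genome, on each of the 8 arrays (2 per line). For the nuclear complexes GFP 1 lies below most other arrays, while the mitochondrially encoded genes lie higher in the TIA1 and TIAR than in the HuR arrays.

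The transcription factors NRF-1, GABP (an ETS factor, also called NRF-2) and YY1 are known regulators of respiratory chain genes, and the promoters were searched for their motifs. RefSeq promoters (GRCh38.p14) were at hand for 73 subunit and assembly genes of the group, over the 250 bases before the start. The letters GCGCNTGCG of NRF-1, on either strand, occurred in 20 of the 73 (27.4%) against 7.09% of all 27305 promoters of this length. The ETS letters CCGGAAG occurred in 17 (23.3%) against 8.82%, and the YY1 letters AANATGGC in 4 (5.48%) against 3.91%. At least 1 of the 3 motifs was found in 47.9% of the group against 17.8% of all promoters. A window may reach into a neighbouring gene, matches of different motifs may share bases, and a match is a description of the letters and not a site of binding. Of the 10 genes with a promoter that were lower past the adjusted p in TIA1- or TIAR-expressing cells than in HuR-expressing cells, 2 held a motif, and of the 9 that were higher 4 did. Shown are the bases upstream of the start of the 3 called genes (NDUFAF2, NDUFA7 and COX8C) and of 3 genes past the adjusted p that hold an ETS match (NDUFAF4, COX6A1 and NDUFB7), 5' to 3', with motif matches in capitals. The windows are 200 bases long or end where the gene next to it begins, which is ERCC8 for NDUFAF2, RPS28 for NDUFA7 and KLHL32 for NDUFAF4, and the COX8C window lies within the span of UNC79.
NDUFAF2, chr5:60945071-60945204, plus strand: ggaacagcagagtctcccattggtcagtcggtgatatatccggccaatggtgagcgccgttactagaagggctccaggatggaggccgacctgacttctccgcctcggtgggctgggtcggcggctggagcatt
NDUFA7, chr19:8321376-8321495, minus strand: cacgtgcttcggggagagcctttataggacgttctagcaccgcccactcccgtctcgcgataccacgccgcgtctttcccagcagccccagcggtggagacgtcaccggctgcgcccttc
COX8C, chr14:93346982-93347181, plus strand: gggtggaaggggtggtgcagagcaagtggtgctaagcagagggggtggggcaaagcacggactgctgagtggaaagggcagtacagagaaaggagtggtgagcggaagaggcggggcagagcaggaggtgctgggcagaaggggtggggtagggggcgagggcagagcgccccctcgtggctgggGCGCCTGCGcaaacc
NDUFAF4, chr6:96897892-96898082, minus strand: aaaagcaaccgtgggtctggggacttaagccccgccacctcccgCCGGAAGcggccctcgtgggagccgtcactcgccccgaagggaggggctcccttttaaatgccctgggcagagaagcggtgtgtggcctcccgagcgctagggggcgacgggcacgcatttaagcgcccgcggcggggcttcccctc
COX6A1, chr12:120437913-120438112, plus strand: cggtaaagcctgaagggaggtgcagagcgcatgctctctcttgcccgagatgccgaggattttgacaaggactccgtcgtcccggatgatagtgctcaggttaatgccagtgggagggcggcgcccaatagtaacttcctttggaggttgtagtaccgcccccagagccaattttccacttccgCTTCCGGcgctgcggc
NDUFB7, chr19:14572067-14572266, minus strand: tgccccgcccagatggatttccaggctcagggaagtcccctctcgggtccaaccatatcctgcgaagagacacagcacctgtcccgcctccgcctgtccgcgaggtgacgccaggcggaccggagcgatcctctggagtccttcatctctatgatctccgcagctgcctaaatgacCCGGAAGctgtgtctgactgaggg
The match in COX8C is of NRF-1, the other matches are of ETS letters, and that of COX6A1 is on the opposite strand. NDUFAF2 and NDUFA7 hold none of the 3 motifs in the stretches shown.

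Against HuR-expressing cells, few respiratory chain genes changed by 2-fold, and the smaller changes went both ways. In TIA1- versus HuR-expressing cells, 1 of the 91 genes tested was called higher (COX8C), or 1.1%, where 8.6% of all 28743 probes tested were. Likewise 1 was called lower (NDUFAF2), where 4.84% of all probes were. Past the adjusted p alone, 10 genes (11%) were higher against 24.4% of all probes and 10 (11%) were lower against 17%, so that these genes were past the test no more often than probes in general. In TIAR- versus HuR-expressing cells 1 of 91 was called higher (COX8C) against 7.15% of the 29099 probes tested, and 1 was called lower (NDUFA7) against 2.93%. There 2 genes (2.2%) were higher past the adjusted p alone against 18.3% of all probes, and 10 (11%) were lower against 12.2%. The comparisons share the HuR arrays.

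The median log2 change of the group was -0.027 in TIA1- versus HuR-expressing cells beside 0.087 for all probes tested, and 43 of the 91 genes (47.3%) were higher beside 56.2% of all probes. In TIAR- versus HuR-expressing cells the median was -0.12 beside 0.062, and 27 of 91 (29.7%) were higher beside 55.2%. Neither sign is firm: over the alternatives the TIA1 median ran from -0.075 to 0.029, and the authors' own normalized values, in which the TIAR arrays were normalized apart, turn the TIAR median to 0.045 beside -0.050 for all probes. By complex, the medians in TIA1- versus HuR-expressing cells were -0.044 for the core and -0.044 for the accessory subunits of complex I, -0.59 for its assembly factors, -0.063 for complex II, 0.072 for complex III, 0.17 for complex IV and -0.043 for the ATP synthase. In TIAR- versus HuR-expressing cells they were, in the same order, -0.11, -0.13, -0.57, -0.010, -0.058, 0.094 and -0.20. The assembly factors lay lowest in both comparisons, also under all 13 alternatives. Complex IV lay highest in both, under all 13 alternatives for TIA1 and 9 of 13 for TIAR. With the authors' values complex III was highest in TIAR- versus HuR-expressing cells, at 0.225. It was also highest there with normexp background correction, both alone and when combined with quantile normalization. Complex II was highest without TIAR 2.

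**Figure D2:**
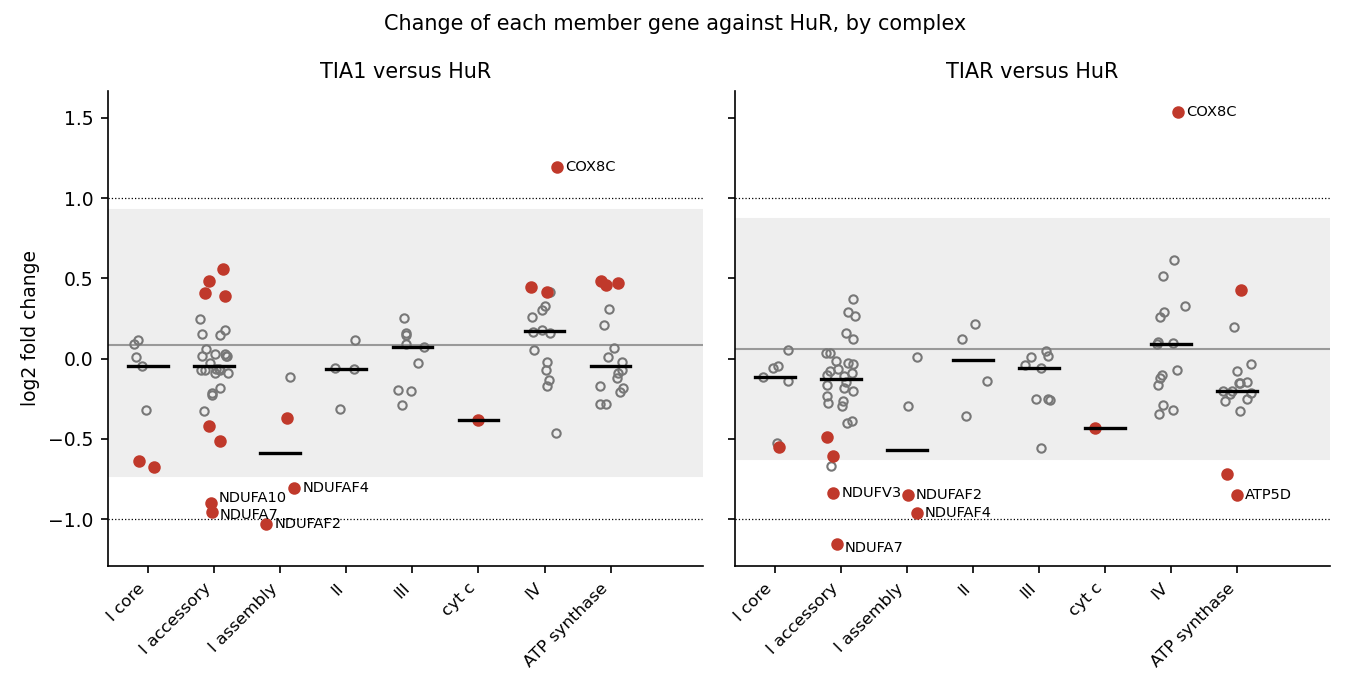
Log2 change of each tested gene in TIA1- versus HuR- and TIAR- versus HuR-expressing cells, by complex. Red points have an adjusted p under 0.05 from limma, black bars are the median of a complex, the grey band spans the 10th to 90th percentile of all probes tested, the grey line is their median and dotted lines mark 2-fold. The 4 complex I assembly factors sit low in both panels and COX8C stands at the top of complex IV. The 4 further names are not plotted.

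By the brightest detected probe of each gene, the largest decrease in each comparison with HuR was in a gene of complex I. A dimmer probe of ATP5E, an ATP synthase gene, fell further in TIAR- versus HuR-expressing cells, at -1.22. Of the 4 assembly factors of complex I, 3 fell past the adjusted p in TIA1- and 2 in TIAR- versus HuR-expressing cells, while 0 rose. Among all probes 17% and 12.2% were lower past the adjusted p in these comparisons. NDUFAF2 is a chaperone that binds a late intermediate of complex I assembly and leaves before the complex is finished. Its probe (chr5:60448587-60448646, hg19) read 2.94 and 3.52 in GFP-, 3.67 and 3.71 in HuR-, 2.67 and 2.65 in TIA1- and 2.79 and 2.89 in TIAR-expressing cells. Both TIA1 and both TIAR arrays lay below both GFP and both HuR arrays. The log2 change was -1.03 (standard error 0.090, adjusted p = 0.00399) in TIA1- and -0.85 (standard error 0.098, adjusted p = 0.00985) in TIAR- versus HuR-expressing cells, the former called. The other NDUFAF2 probe read 2.02 and 2.82 in GFP-, 3.35 and 3.25 in HuR-, 1.68 and 2.44 in TIA1- and 1.96 and 2.34 in TIAR-expressing cells. It was lower in both TIA lines than in HuR-expressing cells, without overlap, with changes of -1.24 (adjusted p = 0.0283) and -1.15 (adjusted p = 0.0145), both called, but GFP 1 fell among the TIA arrays. NDUFAF4, an assembly factor of the membrane-anchored arm, changed by -0.81 (adjusted p = 0.0122) in TIA1- and -0.96 (adjusted p = 0.00871) in TIAR- versus HuR-expressing cells. NDUFAF3, its partner in assembly, changed by -0.37 (adjusted p = 0.0388) in TIA1-expressing cells, and -0.29 (adjusted p = 0.194) in TIAR-expressing cells did not pass. For NDUFAF1 the values were -0.11 (adjusted p = 0.364) and 0.013 (adjusted p = 0.931), neither past the test.

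Of the 30 accessory subunits of complex I, 4 were higher and 4 lower past the adjusted p in TIA1- versus HuR-expressing cells. Among all probes 24.4% were higher and 17% lower. In TIAR- versus HuR-expressing cells 0 of the accessory subunits were higher and 4 lower, beside 18.3% and 12.2% of all probes. NDUFA7 is an accessory subunit of the matrix arm. Its probe (chr19:8376275-8376334, hg19) read 4.70 and 4.48 in GFP-, 5.03 and 4.83 in HuR-, 3.90 and 4.05 in TIA1- and 3.51 and 4.04 in TIAR-expressing cells. All 4 arrays of the TIA lines lay below the 4 arrays of the control lines. NDUFA7 changed by -0.95 (standard error 0.12, adjusted p = 0.00825) in TIA1- and -1.16 (standard error 0.22, adjusted p = 0.0256) in TIAR- versus HuR-expressing cells, the latter called. NDUFA10, an accessory subunit of the membrane arm, changed by -0.90 (adjusted p = 0.00585) and -0.61 (adjusted p = 0.0290), NDUFV3 of the NADH-oxidizing module by -0.51 (adjusted p = 0.0170) and -0.84 (adjusted p = 0.0152) and the zinc-binding NDUFS6 by -0.42 (adjusted p = 0.0306) and -0.49 (adjusted p = 0.0276). The probes of NDUFA10 differ: besides the brightest one, for which GFP 1 read 1.32 and GFP 2 2.13, other probes changed by -0.50 and -0.15 in TIA1- versus HuR-expressing cells, with adjusted p-values of 0.0740 and 0.409. The 4 genes that rose in TIA1-expressing cells all encode subunits of the membrane arm, NDUFB1 at 0.56 (adjusted p = 0.0213), NDUFB11 at 0.49 (adjusted p = 0.0219), NDUFB7 at 0.41 (adjusted p = 0.0445) and NDUFB3 at 0.39 (adjusted p = 0.0362). Their values in TIAR- versus HuR-expressing cells were 0.37, 0.27, 0.29 and -0.074, with no adjusted p under 0.109. NDUFAB1, the mitochondrial acyl carrier protein, had its spot on HuR 2 left out as an outlier, so that its comparisons with HuR rest on 1 HuR array.

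The core subunits of complex I carry the redox centres from NADH to coenzyme Q. NDUFV2, an iron-sulfur subunit beside the NADH site, changed by -0.64 (adjusted p = 0.0458) in TIA1-expressing cells, and -0.53 (adjusted p = 0.111) in TIAR-expressing cells did not pass. NDUFS1, the largest iron-sulfur subunit, read 3.56 and 4.06 in GFP-, 4.01 and 3.93 in HuR-, 3.56 and 3.75 in TIA1- and 3.77 and 3.90 in TIAR-expressing cells. NDUFV1, which binds NADH and its flavin, read 4.88 and 5.23 in GFP-, 5.28 and 5.24 in HuR-, 5.21 and 5.33 in TIA1- and 5.13 and 5.27 in TIAR-expressing cells. HuR arrays lay above the TIA arrays for NDUFS1 by less than the difference between the GFP arrays, and for NDUFV1 HuR overlapped with both TIA lines. Neither passed the test, with log2 changes of -0.32 (adjusted p = 0.0859) and -0.14 (adjusted p = 0.364) for NDUFS1 and 0.011 (adjusted p = 0.938) and -0.059 (adjusted p = 0.698) for NDUFV1, TIA1 and TIAR against HuR in that order.

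Complex II, the succinate dehydrogenase that also serves the citric acid cycle, had no gene past the test in either comparison with HuR. SDHA, its flavoprotein, read 3.94 and 4.35 in GFP-, 4.38 and 4.39 in HuR-, 4.31 and 4.32 in TIA1- and 4.58 and 4.43 in TIAR-expressing cells. SDHB, its iron-sulfur subunit, read 3.60 and 3.63 in GFP-, 4.44 and 4.33 in HuR-, 4.32 and 3.83 in TIA1- and 4.05 and 4.01 in TIAR-expressing cells. The arrays of SDHB in GFP-expressing cells were below those of the other lines and those in HuR-expressing cells above those of both TIA lines, but the TIA1 arrays differed from one another by more than the means of TIA1 and HuR did. For SDHA the TIAR arrays were the highest of the 8. The log2 changes against HuR were -0.067 (adjusted p = 0.579) and 0.12 (adjusted p = 0.423) for SDHA and -0.31 (adjusted p = 0.256) and -0.36 (adjusted p = 0.0618) for SDHB in TIA1- and TIAR-expressing cells. Other SDHA probes were lower in TIA1- versus HuR-expressing cells past the adjusted p, at -0.37 (adjusted p = 0.0484) and -0.65 (adjusted p = 0.0298), and the 3 other probes were negative in TIAR- versus HuR-expressing cells, at -0.39 to -0.15, none past the test, so that the probes of this gene do not give 1 value.

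None of the 9 genes of complex III passed the test in either comparison with HuR by its brightest probe. UQCRC1, a core subunit, read 3.82 and 4.04 in GFP-, 4.40 and 4.33 in HuR-, 4.25 and 3.92 in TIA1- and 4.05 and 4.18 in TIAR-expressing cells. UQCRFS1, the Rieske iron-sulfur protein, read 5.36 and 6.41 in GFP-, 6.47 and 6.36 in HuR-, 6.32 and 6.44 in TIA1- and 5.98 and 6.33 in TIAR-expressing cells. CYC1, cytochrome c1, read 3.27 and 3.77 in GFP-, 3.82 and 4.01 in HuR-, 3.76 and 3.67 in TIA1- and 3.17 and 3.54 in TIAR-expressing cells. HuR arrays lay above both TIA lines for UQCRC1 and CYC1 and above TIAR for UQCRFS1, and GFP 1 was more than 1 log2 unit below GFP 2 for UQCRFS1. The changes in TIA1- and TIAR- versus HuR-expressing cells were -0.29 (adjusted p = 0.181) and -0.25 (adjusted p = 0.141) for UQCRC1, -0.030 (adjusted p = 0.838) and -0.26 (adjusted p = 0.273) for UQCRFS1, and -0.20 (adjusted p = 0.226) and -0.56 (adjusted p = 0.0749) for CYC1. For UQCR10, a small membrane subunit, the probes disagreed. The brightest (chr22:30165827-30165886, hg19) changed by 0.072 and -0.041, while a probe close by (chr22:30165937-30165996) read 0.95 and 1.32 in GFP-, 1.62 and 1.56 in HuR-, 0.74 and 0.79 in TIA1- and 0.54 and 0.65 in TIAR-expressing cells. The latter was lower in both TIA lines than on every control array and changed by -0.83 (adjusted p = 0.00611) and -0.996 (adjusted p = 0.00796). Which probe follows the mature messenger was not examined.

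Cytochrome c, the carrier between complexes III and IV that also starts the apoptosome when released from mitochondria, was slightly lower in both TIA lines than in HuR-expressing cells. CYCS read 3.41 and 4.04 in GFP-, 4.02 and 4.12 in HuR-, 3.73 and 3.64 in TIA1- and 3.69 and 3.59 in TIAR-expressing cells. HuR arrays lay above all 4 TIA arrays, GFP 2 lay with HuR and GFP 1 below all. The change was -0.38 (standard error 0.099, adjusted p = 0.0416) in TIA1- and -0.43 (standard error 0.10, adjusted p = 0.0439) in TIAR- versus HuR-expressing cells, past the adjusted p but under 2-fold, and stayed past it in 3 and 2 of 13 alternatives. Against GFP the values of -0.041 (adjusted p = 0.947) and -0.089 (adjusted p = 0.890) did not pass. These values are of the brightest of 3 CYCS probes, which differed. Over the 3, the changes ran from -0.041 to 0.97 in TIA1- and from -0.089 to 0.66 in TIAR- versus GFP-expressing cells. Against HuR they ran from -0.38 to -0.076 in TIA1- and from -0.43 to -0.38 in TIAR-expressing cells. No CYCS probe was called.

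In complex IV, 11 of the 16 tested genes (68.8%) were higher in TIA1- than in HuR-expressing cells, beside 56.2% of all probes, and 3 of them (18.8%, COX6A1, COX7A2L and COX8C) were past the adjusted p, beside 24.4% of all probes. In TIAR-expressing cells 1 was (6.25%, COX8C), beside 18.3%. None was lower past the test. COX5A and COX5B, nuclear subunits close to the catalytic core, read 4.97 and 5.26 (GFP), 6.11 and 5.99 (HuR), 5.91 and 5.86 (TIA1), and 5.88 and 5.98 (TIAR) for COX5A and 4.13 and 4.49 (GFP), 4.64 and 4.63 (HuR), 4.67 and 4.71 (TIA1), and 4.32 and 4.62 (TIAR) for COX5B. GFP arrays were the lowest for COX5A, on its brighter probe, and lay below HuR and TIA1 for COX5B. The changes against HuR were -0.17 (adjusted p = 0.230) and -0.12 (adjusted p = 0.429) for COX5A and 0.053 (adjusted p = 0.667) and -0.17 (adjusted p = 0.400) for COX5B, TIA1 first, and none passed. The other COX5A probe changed by -0.54 and -0.52 against HuR and by -0.065 and -0.049 against GFP, TIA1 first, and was not called.

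Where complex IV has paralogs, the ubiquitous one was well above background on all 8 arrays, and so was COX6B2, while COX6A2 was on 7, COX8C and NDUFA4L2 on 5, and COX4I2, COX7A1 and COX7B2 on at most 2. COX4I1 read 4.77 and 5.40 in GFP-, 5.18 and 5.32 in HuR-, 5.55 and 5.46 in TIA1- and 5.35 and 5.37 in TIAR-expressing cells. Both TIA lines lay above HuR, with GFP 2 among them, and the changes of 0.26 (adjusted p = 0.120) in TIA1- and 0.11 (adjusted p = 0.472) in TIAR- versus HuR-expressing cells did not pass. Its lung and hypoxia paralog COX4I2 was not detected. COX6A1 read 7.004 and 7.55 in GFP-, 7.29 and 7.19 in HuR-, 7.72 and 7.59 in TIA1- and 7.52 and 7.48 in TIAR-expressing cells. It was higher on the TIA1 and TIAR arrays than on the HuR arrays, with GFP 2 among the TIA arrays, and changed by 0.41 (standard error 0.10, adjusted p = 0.0388) and 0.26 (adjusted p = 0.116). In TIA1- versus HuR-expressing cells COX6A1 was not past the adjusted p with normexp, with quantile normalization or with the authors' values. Over the 13 alternatives its change there ran from 0.10 to 0.48. COX6A2, the heart and muscle paralog, read -2.97 and -7.31 in GFP-, -4.91 and -5.15 in HuR-, -5.38 and -3.85 in TIA1- and -4.87 and -4.15 in TIAR-expressing cells. It was not well above background on GFP 2, where it lay more than 4 log2 units under GFP 1, and its change of 0.41 (adjusted p = 0.570) in TIA1- and 0.52 (adjusted p = 0.224) in TIAR- versus HuR-expressing cells did not pass.

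COX6B1 read 6.32 and 6.85 in GFP-, 6.69 and 6.62 in HuR-, 6.82 and 6.84 in TIA1- and 6.54 and 6.64 in TIAR-expressing cells. COX6B2, known from testis, read 1.15 and 1.39 in GFP-, 1.90 and 1.84 in HuR-, 2.22 and 2.12 in TIA1- and 2.08 and 1.86 in TIAR-expressing cells. For COX6B1 the TIA1 arrays lay above HuR and TIAR, within the range of the GFP arrays. The GFP arrays of COX6B2 lay below all others and TIA1 above HuR and TIAR, and its changes against HuR, 0.30 (adjusted p = 0.0690) and 0.10 (adjusted p = 0.557), did not pass, nor did those of COX6B1, 0.17 (adjusted p = 0.210) and -0.069 (adjusted p = 0.635). A dimmer COX6B2 probe, well above background on 5 arrays, went the other way, at -0.60 (adjusted p = 0.365) and -0.70 (adjusted p = 0.174), and did not pass either. COX6C read 4.14 and 4.98 in GFP-, 4.92 and 4.69 in HuR-, 4.99 and 4.94 in TIA1- and 4.89 and 4.90 in TIAR-expressing cells. Its TIA1 arrays lay above HuR and TIAR and GFP 1 below all, and the changes were 0.16 (adjusted p = 0.328) and 0.088 (adjusted p = 0.606).

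COX7A2 read 5.57 and 5.87 in GFP-, 6.10 and 6.01 in HuR-, 6.19 and 6.29 in TIA1- and 5.61 and 5.82 in TIAR-expressing cells. TIA1 arrays were above HuR and TIAR below it, with changes of 0.18 (adjusted p = 0.207) and -0.34 (adjusted p = 0.102) that did not pass. COX7A2L, a relative that takes part in supercomplexes of complexes III and IV, read 2.81 and 3.12 in GFP-, 2.88 and 2.86 in HuR-, 3.42 and 3.22 in TIA1- and 3.19 and 3.21 in TIAR-expressing cells. Both TIA lines lay above both control lines for COX7A2L, and the change was 0.45 (standard error 0.11, adjusted p = 0.0370) in TIA1- and 0.33 (adjusted p = 0.0624) in TIAR- versus HuR-expressing cells, the former past the adjusted p. Their muscle paralog COX7A1 was not detected. COX7B read 5.08 and 5.41 in GFP-, 5.51 and 5.51 in HuR-, 5.43 and 5.45 in TIA1- and 5.09 and 5.29 in TIAR-expressing cells, and was highest in HuR-expressing cells, with changes of -0.069 (adjusted p = 0.567) and -0.32 (adjusted p = 0.102), while its testis paralog COX7B2 was not detected.

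COX8A, the ubiquitous last subunit, read 6.31 and 6.77 in GFP-, 6.59 and 6.43 in HuR-, 6.84 and 6.83 in TIA1- and 6.76 and 6.84 in TIAR-expressing cells. Both TIA lines lay above HuR, with changes of 0.33 (adjusted p = 0.0679) and 0.29 (adjusted p = 0.115) that did not pass. COX8C, its paralog described in testis, was the only gene of the group called higher against HuR. Its probe (chr14:93814553-93814612, hg19) lay near the detection limit and read -5.72 and -5.75 in GFP-, -6.14 and -5.48 in HuR-, -4.52 and -4.72 in TIA1- and -4.34 and -4.21 in TIAR-expressing cells. It was well above background on both TIA1 and both TIAR arrays and on 1 HuR array, and on neither GFP array. It therefore entered the comparisons with HuR and with GFP only through the TIA lines, where it was high. With the filter requiring detection on all 4 arrays it was not tested. The 4 TIA arrays lay above the 4 control arrays. The change was 1.19 (standard error 0.25, adjusted p = 0.0246) in TIA1- and 1.54 (standard error 0.25, adjusted p = 0.0181) in TIAR- versus HuR-expressing cells. Against GFP, where it has only a bound, the signal was at least 1.96-fold higher in TIA1- (adjusted p = 0.114) and in TIAR-expressing cells at least 2.49-fold higher (adjusted p = 0.169), neither past the test. Under other ways of processing the call remained in 4 of 12 alternatives for TIA1 and 6 of 12 for TIAR, with log2 changes from 0.35 to 1.52 and from 0.195 to 1.86. Of 4 testis genes (PRM1, PRM2, TNP1 and ODF1) only PRM1 was detected, with changes of 0.082 (adjusted p = 0.727) and 0.30 (adjusted p = 0.145) in the same comparisons. The summed signal of the 4, relative to the 75th percentile, was 0.0408 to 0.0415 in HuR-, 0.0427 to 0.0577 in TIA1-, 0.0601 to 0.0822 in TIAR- and 0.0409 to 1.22 in GFP-expressing cells, and its part in the result was not tested.

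NDUFA4, long counted with complex I and now assigned to complex IV, read 5.24 and 5.69 in GFP-, 5.74 and 5.62 in HuR-, 5.63 and 5.69 in TIA1- and 5.52 and 5.64 in TIAR-expressing cells. The lines overlapped, and the changes were -0.019 (adjusted p = 0.897) and -0.10 (adjusted p = 0.515) against HuR. NDUFA4L2, its paralog induced by hypoxia, read -4.48 and -5.60 in GFP-, -5.06 and -4.65 in HuR-, -5.62 and -5.02 in TIA1- and -4.45 and -4.03 in TIAR-expressing cells. It was well above background on both HuR and both TIAR arrays and on 1 GFP array, and not on the TIA1 arrays, and the TIAR arrays were the highest of all lines. The signal was at least 2.11-fold higher in TIAR- than in TIA1-expressing cells (limma, adjusted p = 0.105) and at least 1.38-fold lower in TIA1- than in HuR-expressing cells (adjusted p = 0.218).

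Of the 16 genes of the ATP synthase, 3 were higher past the adjusted p in TIA1- versus HuR-expressing cells and 0 lower. Among all probes 24.4% were higher and 17% lower. In TIAR- versus HuR-expressing cells 1 was higher and 2 lower, beside 18.3% and 12.2% of all probes. There 2 of 16 had a positive change, beside 55.2% of all probes. Of the catalytic head, ATP5A1 (subunit alpha) read 5.49 and 5.88 in GFP-, 5.93 and 5.93 in HuR-, 5.70 and 5.60 in TIA1- and 5.81 and 5.63 in TIAR-expressing cells. ATP5B (subunit beta) read 5.69 and 5.92 in GFP-, 5.95 and 6.02 in HuR-, 5.85 and 5.78 in TIA1- and 5.74 and 5.74 in TIAR-expressing cells. For both, HuR arrays lay above the GFP arrays and above both TIA lines, by no more than 0.28 on average, and the changes of -0.28 (adjusted p = 0.0798) and -0.21 (adjusted p = 0.210) for ATP5A1 and -0.17 (adjusted p = 0.213) and -0.25 (adjusted p = 0.118) for ATP5B did not pass. In the central stalk, ATP5D (subunit delta) changed by -0.85 (adjusted p = 0.0242) in TIAR- versus HuR-expressing cells and by 0.014 (adjusted p = 0.922) in TIA1- versus HuR-expressing cells. The 3 genes that rose in TIA1-expressing cells were ATP5E (subunit epsilon), ATP5J (coupling factor 6, in the stator) and ATP5J2 (subunit f, in the membrane), at 0.49, 0.47 and 0.46, with adjusted p-values of 0.0258, 0.0266 and 0.0254. Against HuR, TIAR-expressing cells had -0.15 for ATP5J and -0.20 for ATP5J2, neither past the test.

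ATP5G1, ATP5G2 and ATP5G3 encode the same mature subunit c of the rotor behind different import signals. ATP5G1 read 3.77 and 4.61 in GFP-, 4.54 and 4.50 in HuR-, 4.29 and 4.18 in TIA1- and 3.57 and 4.03 in TIAR-expressing cells. ATP5G2 read 6.65 and 6.97 in GFP-, 7.0005 and 6.83 in HuR-, 6.86 and 6.78 in TIA1- and 6.71 and 6.72 in TIAR-expressing cells. ATP5G3 read 6.36 and 6.79 in GFP-, 6.55 and 6.47 in HuR-, 6.35 and 6.43 in TIA1- and 6.16 and 6.34 in TIAR-expressing cells. All were higher in HuR- than in TIAR-expressing cells without overlap, and ATP5G1 and ATP5G3 also higher in HuR- than in TIA1-expressing cells. ATP5G1 changed by -0.72 (standard error 0.18, adjusted p = 0.0494) in TIAR- versus HuR-expressing cells, past the adjusted p, and by -0.28 (adjusted p = 0.0798) in TIA1- versus HuR-expressing cells. ATP5G2 and ATP5G3 did not pass, with changes between -0.26 and -0.092.

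ATP5E was measured by probes that moved in opposite directions. The brighter probe (chr20:57603812-57603871, hg19) read 6.59 and 7.04 in GFP-, 6.64 and 6.57 in HuR-, 7.02 and 7.16 in TIA1- and 7.04 and 7.01 in TIAR-expressing cells. It was higher on the 4 TIA arrays than on the HuR arrays, and GFP 2 lay between the TIA arrays. It changed by 0.49 (standard error 0.10, adjusted p = 0.0258) in TIA1- and 0.42 (standard error 0.095, adjusted p = 0.0373) in TIAR- versus HuR-expressing cells. The other probe (chr20:57601028-57601087, hg19) read -1.85 and -1.45 in GFP-, -1.67 and -1.56 in HuR-, -1.74 and -1.62 in TIA1- and -2.92 and -2.75 in TIAR-expressing cells. On it, the TIAR arrays lay more than 1 log2 unit below the lowest of the HuR and TIA1 arrays, which overlapped with one another, and below both GFP arrays. It changed by -1.22 (standard error 0.12, adjusted p = 0.00727) in TIAR- versus HuR-expressing cells, which was called, and by -0.065 (adjusted p = 0.650) in TIA1- versus HuR-expressing cells. Which transcripts each probe sees was not examined.

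**Figure D3:**
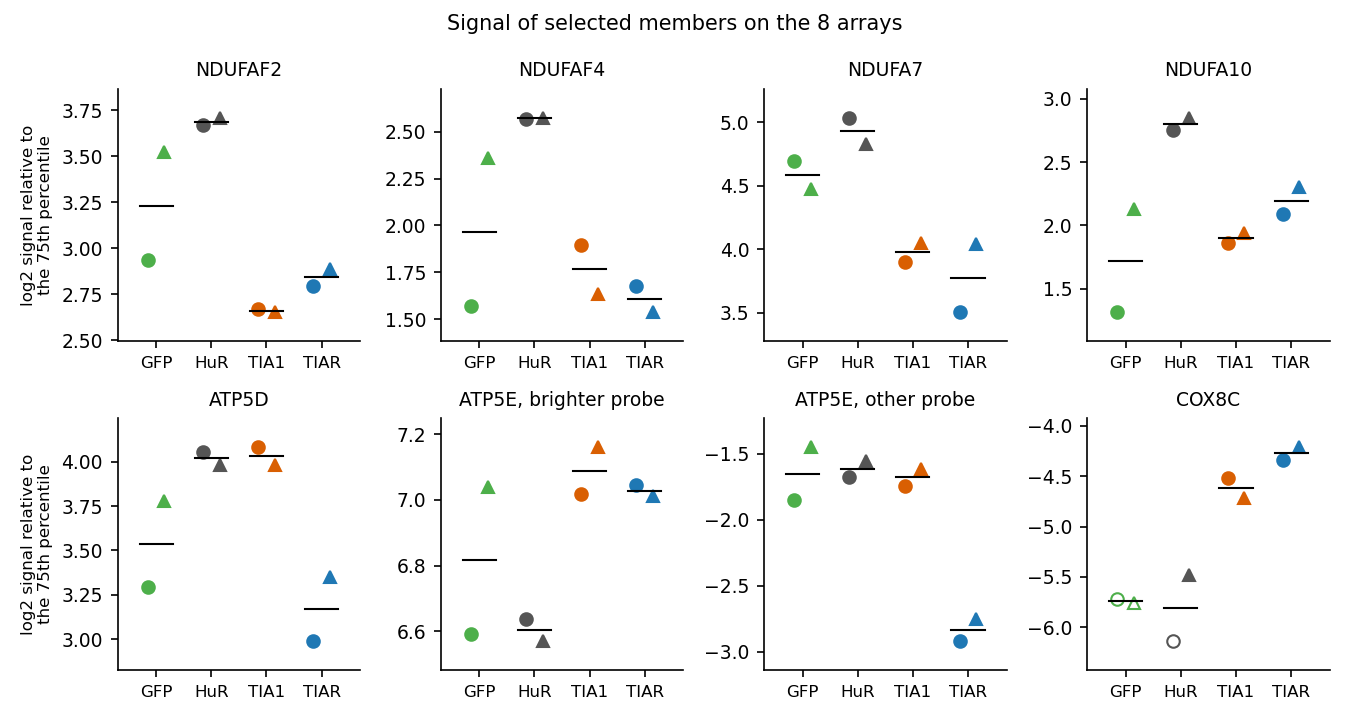
Log2 signal, relative to the array's 75th percentile, of 8 probes on the 8 arrays, by line. Points are arrays, bars are means of 2 arrays and open points are not well above background. NDUFAF2 and NDUFA7 are lower and COX8C is higher in both TIA lines than in both control lines, and the other ATP5E probe is low in TIAR-expressing cells alone of the 4 lines.

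Against GFP-expressing cells, 0 respiratory chain genes were called by limma in any of the 3 lines, and no probe of the whole array was (0% in TIA1-, 0% in TIAR- and 0% in HuR- versus GFP-expressing cells). At an unadjusted p under 0.05 there were 11, 6 and 10 genes, and by the methods' t-test with a 2-fold change 1, 1 and 0. Over all probes, 5975, 4592 and 4870 had an unadjusted p under 0.05. The genes nevertheless lay mostly on one side. In TIA1- versus GFP-expressing cells 75 of 90 genes were higher, beside 50.8% of all probes, with a median of 0.28 beside 0.012 for all probes. All 9 genes of complex III and all 15 tested of complex IV had a positive value there. In TIAR- versus GFP-expressing cells 66 of 91 were higher, beside 48.7% of all probes (median 0.18 beside -0.018). In HuR- versus GFP-expressing cells 77 of 90 were, beside 46.6% (median 0.29 beside -0.045). These medians depend on GFP 1: without it they were 0.052, -0.048 and 0.058 for TIA1, TIAR and HuR, and without GFP 2 they were 0.47, 0.35 and 0.47. They also depend on the scaling. With quantile normalization the median of all probes moved to 0.24, 0.23 and 0.25, and the respiratory chain medians of 0.069, 0.042 and 0.11 then lay below and not above it. The comparisons share the GFP arrays.

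Some genes were low on both GFP arrays. NDUFA6, an accessory subunit of complex I with a LYR motif, read 2.23 and 2.15 in GFP-, 3.08 and 3.49 in HuR-, 3.01 and 3.43 in TIA1- and 2.96 and 2.83 in TIAR-expressing cells. ATP5F1, the subunit b of the stator, read 3.67 and 4.25 in GFP-, 5.08 and 4.98 in HuR-, 4.86 and 4.82 in TIA1- and 4.87 and 4.89 in TIAR-expressing cells. Both GFP arrays lay below all others for both genes. The changes in HuR- versus GFP-expressing cells, 1.09 (adjusted p = 0.202) for NDUFA6 and 1.07 (adjusted p = 0.227) for ATP5F1, did not pass in the comparison of 4 arrays. With all 8 arrays in one fit they were called at 1.09 and 1.07, with adjusted p-values of 0.0422 and 0.0427 from limma. These 2 genes were chosen after their values were seen.

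Between TIAR- and TIA1-expressing cells the ATP synthase held the lowest values, and no gene was called. By limma 0 of the 91 genes were called, beside 2.35% of all 28063 probes, and the methods' t-test called 0. At an unadjusted p under 0.05 there were 8 genes, beside 6660 of all probes. The median was -0.11 beside -0.023 for all probes, and 21 of 91 (23.1%) were higher in TIAR-expressing cells, beside 47.1% of all probes. The authors' values, with the TIAR arrays normalized apart, turn this median to 0.065. The lowest values were those of ATP5D, at -0.86 (adjusted p = 0.0687), ATP5J2 at -0.66 (adjusted p = 0.0623) and ATP5J at -0.62 (adjusted p = 0.0722). The other ATP5E probe, which does not stand for its gene in the counts, was called at -1.155 (standard error 0.13, adjusted p = 0.0338), a call that was kept in 3 of 12 alternatives.

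The 13 protein genes of the mitochondrial genome, which supply the cores of the same complexes, had a positive median change against HuR. Past the adjusted p, 7 of 13 rose in TIA1- and 5 in TIAR- versus HuR-expressing cells, beside 24.4% and 18.3% of all probes tested. The median signal of the 13 genes was 6.48 and 6.84 in GFP-, 6.63 and 6.29 in HuR-, 7.09 and 6.92 in TIA1- and 6.99 and 7.06 in TIAR-expressing cells. All 4 TIA arrays lay above the 4 control arrays. In TIA1- versus HuR-expressing cells 0 fell and 1 was called, with a median of 0.55, and in TIAR- versus HuR-expressing cells 1 fell and 0 were called (10 had an unadjusted p under 0.05), with a median of 0.54. The nuclear genes had medians of -0.027 and -0.12 in the same comparisons, whose sign changed with the processing. Under the 13 alternatives the medians of the mitochondrial genes ranged from 0.23 to 0.69 and from 0.39 to 0.66, and lay above the median of all probes by at least 0.22 and 0.31. The counts were less stable than the medians. With all 8 arrays in one fit, with no filter on dim probes, without HuR 1 and without HuR 2, 1 gene was higher past the adjusted p in TIA1- and 0 in TIAR- versus HuR-expressing cells. Over the other alternatives the counts ran from 4 to 8 in TIA1- and from 2 to 8 in TIAR-expressing cells, with 2 for TIAR with the replicate block and without TIAR 2.

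ND1, a complex I subunit of the membrane arm, was the called one. It read 3.53 and 4.26 in GFP-, 3.88 and 4.02 in HuR-, 5.22 and 5.10 in TIA1- and 4.55 and 4.55 in TIAR-expressing cells. Both TIA1 arrays lay above all others and the TIAR arrays above the control arrays, with changes of 1.21 (adjusted p = 0.00407) and 0.61 (adjusted p = 0.0206) against HuR. ND2, ND3 and ND4L changed by 0.70, 0.90 and 0.82 in TIA1-expressing cells, CYTB of complex III by 0.55, COX2 of complex IV by 0.58 and ATP6 of the ATP synthase by 0.41, all past the adjusted p. ND6, the protein gene on the other strand of the mitochondrial genome, read -0.66 and -0.43 in GFP-, -0.16 and -0.0045 in HuR-, -0.64 and -0.11 in TIA1- and -0.87 and -0.56 in TIAR-expressing cells. It was the only one lower past the adjusted p, at -0.63 (adjusted p = 0.0445) in TIAR- versus HuR-expressing cells, and -0.29 (adjusted p = 0.310) in TIA1- versus HuR-expressing cells did not pass. Against GFP, 0 of 13 passed by limma and 2, 2 and 0 had an unadjusted p under 0.05, with medians of 0.41, 0.38 and 0.0064 for TIA1, TIAR and HuR, and TIAR versus TIA1 gave -0.031 with 0 past the test and 2 at an unadjusted p under 0.05. Nuclear copies of mitochondrial sequence exist and some probes may also see them, and the array design places the COX1 probe on chromosome 1.

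**Figure D4:**
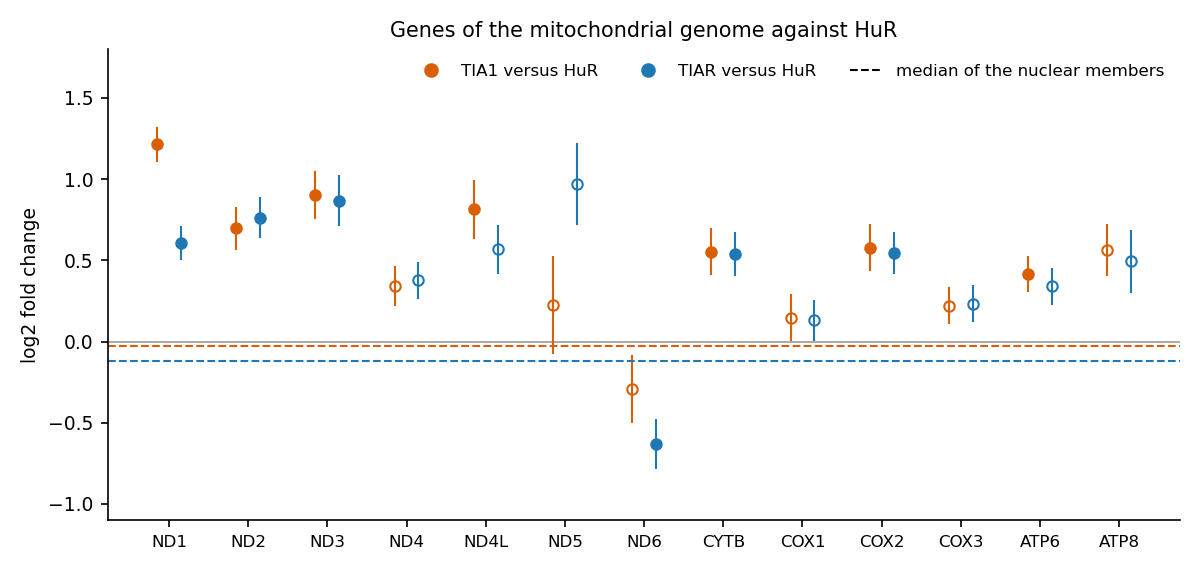
Log2 change of the 13 mitochondrially encoded protein genes in TIA1- versus HuR- and TIAR- versus HuR-expressing cells. Error bars are standard errors from limma, filled points have an adjusted p under 0.05 and dashed lines are the medians of the nuclear respiratory chain genes. Most points lie above the dashed lines, and ND6 lies below them.

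Genes that build or feed the chain but are no subunits were mostly lower where they passed the test. Among all probes 24.4% were higher and 17% lower past the adjusted p in TIA1- and 18.3% and 12.2% in TIAR- versus HuR-expressing cells. Called were 8.6% higher and 4.84% lower, and 7.15% and 2.93%, in the same order. Of the 28 assembly factors on the array, out of 36 listed, 2 were higher and 9 lower past the adjusted p in TIA1- and 1 higher and 7 lower in TIAR- versus HuR-expressing cells (medians -0.31 and -0.15). The called ones were ATPAF1, a chaperone of the ATP synthase, at -1.01 (adjusted p = 0.00736) in TIA1-expressing cells, and COX18, which inserts a complex IV subunit, in TIAR-expressing cells. COX18 was not well above background on the TIAR arrays and was at least 2.56-fold lower there than in HuR-expressing cells. In limma, on signals not raised to the detection limit, its log2 change was -1.72 (adjusted p = 0.0317). COX18 entered this comparison only through the HuR line, where it was high. SCO1, which delivers copper to complex IV, changed by -0.98 (adjusted p = 0.00524) and -0.54 (adjusted p = 0.0359), and SURF1, also of complex IV assembly, rose by 0.56 (adjusted p = 0.0261) and 0.78 (adjusted p = 0.0138). All 11 genes of coenzyme Q synthesis were detected, and 3 were higher and 6 lower in TIA1- and 2 higher and 4 lower in TIAR- versus HuR-expressing cells (medians -0.56 and -0.020). COQ2, which attaches the tail of coenzyme Q to its ring, read 0.16 and -0.037 in GFP-, 0.81 and 0.77 in HuR-, -0.52 and -0.85 in TIA1- and -0.32 and -0.50 in TIAR-expressing cells. It was lower in both TIA lines than in HuR-expressing cells, at -1.48 (adjusted p = 0.00461) and -1.20 (adjusted p = 0.00697), both called, and COQ9 was called at -1.17 (adjusted p = 0.00443) in TIA1-expressing cells.

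Of 8 other enzymes that pass electrons to coenzyme Q, 6 were lower past the adjusted p in TIA1- versus HuR-expressing cells (median -0.59) and 1 in TIAR- versus HuR-expressing cells (median -0.23), and 0 higher in both. Among all probes 17% and 12.2% were lower and 24.4% and 18.3% higher, TIA1 first. ETFB, a subunit of the electron-transferring flavoprotein of fatty acid oxidation, changed by -0.96 (adjusted p = 0.00460) and -0.59 (adjusted p = 0.0232). Of 14 regulators, 3 were higher and 4 lower in TIA1- and 2 higher and 4 lower in TIAR- versus HuR-expressing cells (medians -0.18 and -0.29). GABPA, the DNA-binding subunit of GABP, read 1.33 and 1.63 in GFP-, 0.81 and 0.86 in HuR-, 2.56 and 2.29 in TIA1- and 1.67 and 1.26 in TIAR-expressing cells. It was called higher in TIA1-expressing cells at 1.59 (adjusted p = 0.00354), and 0.63 (adjusted p = 0.0547) in TIAR-expressing cells did not pass. TFB1M, which methylates the mitochondrial ribosomal RNA, read 0.62 and 1.14 in GFP-, 1.20 and 1.22 in HuR-, -0.10 and 0.052 in TIA1- and -0.20 and -0.039 in TIAR-expressing cells. It was called lower in both TIA lines, at -1.23 (adjusted p = 0.00375) and -1.33 (adjusted p = 0.00582). Over these 4 lists, 8 genes were higher and 25 lower past the adjusted p in TIA1- and 5 higher and 16 lower in TIAR- versus HuR-expressing cells. Without HuR 1, and likewise without HuR 2, this fell to 1 and 2 in TIA1- and to 0 and 0 in TIAR-expressing cells, and with no filter on dim probes to 2 and 7, and 0 and 3. With all 8 arrays in one fit it was 4 and 12, and 3 and 5. Read against the shares of all probes given above, these lists are descriptions and carry no test of their own.

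Markers of the cell line went both ways, and those of other cell types that passed the test against HuR were mostly higher. Of the HEK293 markers 3 were higher and 2 lower past the adjusted p in TIA1- and 3 higher and 3 lower in TIAR- versus HuR-expressing cells, the largest change being NEFL at -1.39 (adjusted p = 0.00284) and -1.68 (adjusted p = 0.00498). Detected were 3 of 5 blood, 2 of 3 endothelial, 3 of 4 fibroblast, 4 of 6 muscle and heart and 1 of 4 testis markers. Past the adjusted p in TIA1- versus HuR-expressing cells were 2 blood, 1 endothelial, 1 fibroblast and 2 muscle markers in the upward direction and 1 fibroblast marker in the downward one. In TIAR- versus HuR-expressing cells 1 blood, 2 fibroblast and 1 muscle marker were higher and 0 lower. Among all probes, 24.4% and 18.3% were higher and 17% and 12.2% lower past the adjusted p in the same comparisons. CKM, the muscle creatine kinase, was well above background on neither HuR array. It therefore entered the comparisons with HuR only through the TIA lines, where it was high. Relative to HuR its signal in TIA1-expressing cells was at least 2.23-fold higher (limma, adjusted p = 0.0102) and in TIAR-expressing cells at least 2.19-fold higher (adjusted p = 0.0167). The median change of the tested muscle and heart markers was 0.72 in TIA1- and -0.28 in TIAR- versus HuR-expressing cells. The muscle paralogs COX6A2 and COX7A1 gave no call. On GFP 1 the summed signals of the blood (2.91 against 0.456 to 1.26), fibroblast (2.72 against 0.176 to 0.960) and testis lists were higher than on the other arrays. Their part in the respiratory chain values was not tested.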

How the data were processed

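RNA of the 4 FT293 lines was hybridized to 8 one-colour Agilent arrays, 2 for each line. For every array the authors deposited Feature Extraction 10.7.3.1 output, whose processed signal is an intensity that is background-subtracted but not scaled between arrays. A deposited table of the series holds log2 values after quantile normalization, with the TIAR arrays on one distribution and all others on another. Positions of probes follow the hg19 coordinates of the array design.

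Outlier spots were dropped, processed signals were put on a log2 scale relative to the 75th percentile of their array, and repeated spots were averaged. Tests used limma 3.58.1 in R 4.3.3 on the 4 arrays of a comparison, adjusted over every probe tested, and were tried on simulated data first. The brightest detected probe stood for a gene, and probes of genes with near-identical pseudogenes may read both. A fold given as "at least" takes the dim line at its own signal or at the array's detection limit, whichever is higher. The adjusted p given for such a gene is from limma on the signals as measured and does not test this bound. Tables were handled with pandas 2.3.3 and the R package data.table (1.17.8), and plots were drawn by matplotlib 3.10.9.

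Promoters came from RefSeq (GRCh38.p14). Of the 94 genes, 93 matched the RefSeq gene list, 20 of them under a newer name, and 75 had a promoter entry. Values on every array are given for catalytic subunits, paralog sets and called genes, and the other genes are given by counts, unless they passed the adjusted p, and other probes of a named gene are given where they disagreed. The values of 1 gene are not reported here, although it is in the counts. The members, the pathway and marker lists and this rule were chosen with earlier results of these data known. Alternative settings were background correction by normexp (offset 50), quantile normalization alone or with normexp, the authors' log2 values, a test of all probes, a filter requiring detection on all 4 arrays, a joint fit of 8 arrays, a replicate block, the omission of single arrays, averaging over a gene's probes, and the paired t-test named in the methods.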

Additional observations from a re-analysis of the deposited data

Results flagged for a closer look

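The ATP5E probe at chr20:57601028-57601087 (hg19), which is not the one that stands for this gene in the counts, changed by -1.155 in TIAR- versus TIA1-expressing cells and was called by limma. It was picked out because the test of the difference between the lines that express the related proteins TIA1 and TIAR passed on this probe, while the same probe changed by -1.22 in TIAR- and by -0.065 in TIA1- versus HuR-expressing cells. The call was kept in 3 of 12 alternatives, with log2 changes from -1.24 to -0.95.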

How the results depend on the processing

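In TIA1- versus HuR-expressing cells, where 2 genes were called, quantile normalization, normexp with quantile normalization and the authors' values gave 0, no filter on dim probes and the filter on all 4 arrays gave 1, and leaving out an array gave 0 to 2 (0 without HuR 1, 1 without HuR 2). The methods' t-test gave 1, and 0 after Benjamini-Hochberg adjustment. In TIAR- versus HuR-expressing cells, where 2 were called, the authors' values and the filter on all 4 arrays gave 1, no filter gave 0, leaving out an array gave 0 to 2 (0 without HuR 1, 1 without HuR 2), and the t-test gave 0 before and after adjustment. The TIAR versus HuR median of -0.12 turned to 0.045 with the authors' values, and the TIAR versus TIA1 median of -0.11 became -0.021 with quantile normalization, -0.0077 with normexp and quantile normalization and 0.065 with the authors' values. Against GFP, where 0 genes were called, all 8 arrays in one fit gave 3 for TIA1, 1 for TIAR and 2 for HuR, leaving out an array gave 0 to 6, 0 to 2 and 0 to 8 (1, 2 and 2 without GFP 1, and 6, 2 and 8 without GFP 2), and the t-test gave 1 for TIA1 and 1 for TIAR. The ATP5E change in TIAR- versus HuR-expressing cells turned from 0.42 to -0.40 with the mean over its probes. The cause of these shifts was not tested. The 36 tests of single genes past the adjusted p were recomputed in 462 cases, of which 247 stayed past it (and past 2-fold where called), 214 did not and 1 reversed. No test stayed past it under all alternatives: without HuR 1, 0 of 35 did, and without HuR 2, 2 of 35 did. The all-probe median of TIA1 versus HuR moved from 0.087 to 0.34 without the filter on dim probes. With the replicate number as a block, 2 genes were called in each comparison with HuR and 0 in the others, and 20 of the 36 tests stayed past the threshold. Differences between same-numbered arrays correlated at -0.066 to 0.14 between lines, so that the numbers were not taken to pair the arrays. COX8C, COX6A2 and NDUFA4L2 lay near the background, which limits what their signals can show.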

Other observations

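Some comparisons share no array. In TIA1- versus HuR- and TIAR- versus GFP-expressing cells 58 of 91 respiratory chain genes (63.7%) had the same direction, beside 59.6% of all probes. In TIA1- versus GFP- and TIAR- versus HuR-expressing cells 37 of 90 did (41.1%), beside 61.4% of all probes. These are descriptions, and the GFP comparisons depend on GFP 1.

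The 4 names that are no subunit, COX4NB, ATP5S, ATP5SL and the pseudogene UQCRBP1, gave no call, with median changes of 0.018 in TIA1- and 0.025 in TIAR- versus HuR-expressing cells. Of 21 genes with several tested probes, the sign of the change differed between probes for 7 in TIA1- versus HuR- and 6 in TIAR- versus HuR-expressing cells, and the probes lay at least 2-fold apart for 0 and 1 of them.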
